A study of Mus musculus with 12 samples.

Results

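The cytosolic J-domain co-chaperones Dnaja1, Dnaja2, Dnaja4, Dnajb1, Dnajb2, Dnajb4, Dnajb5 and Dnajb6 were followed in 2 striatal cell lines with and without heat shock. All probe sets annotated to 1 of these 8 genes were taken, which gave 23 of the 45037 probe sets tested, and the 8 genes are among 18193 that have a probe set of their own. The rule for taking probe sets used no measured value, but the 8 genes were chosen with earlier results of these data known. RNA was measured on 12 Affymetrix mouse expression arrays, 3 for each of 4 groups. The study asked how mutant huntingtin alters the response to heat shock. The groups were STHdhQ111/Q111 cells after 6 h at 42 °C, STHdhQ111/Q111 cells at 33 °C, STHdhQ7/Q7 cells after 6 h at 42 °C and STHdhQ7/Q7 cells at 33 °C. STHdhQ111/Q111 cells (Q111 cells here) come from embryos of knock-in mice whose huntingtin carries an expanded polyglutamine tract, and STHdhQ7/Q7 cells (Q7 cells) from wild-type embryos. All cells grew in serum-supplemented DMEM with G418 at 33 °C before treatment. Each genotype was represented by 1 line, so genotype and line cannot be told apart.

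J-domain proteins, also called Hsp40 proteins, bind unfolded clients and hand them to Hsp70, whose ATPase activity their J domain stimulates. Class A members carry a glycine-phenylalanine-rich stretch and a zinc-binding region after the J domain, class B members the glycine-phenylalanine-rich stretch without that zinc-binding region, and class C members share the J domain alone. Several cytosolic members are heat shock genes, and some of them keep polyglutamine proteins from aggregating in cultured cells.

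Heat shock factors bind repeats of the 5-base unit NGAAN in alternating orientation, so promoter sequence was set beside the expression values. The RefSeq table (build GRCm38.p6) held 17 promoter windows for the 8 genes, and the 250 bases before each annotated start were searched. Either arrangement of a pair of inverted units, GAANNTTC or TTCNNGAA, each of which reads the same on both strands, was searched for, as was, on both strands, the 3-unit run in which GAANNTTC is followed by NNGAA, which contains both pairs. A pair occurred in windows of 4 of the 8 genes, against 14.5% of the 27025 genes in the table. A gene counts if any of its windows matches, and the 27025 genes have 32851 windows, fewer per gene than the 8. Counted by window, a pair occurred in 5 of the 17, among them 2 overlapping Dnajb6 windows, against 12.8% of all windows. The 3-unit run occurred in windows of 1 of the 8 genes, Dnajb6, against 0.514% of all genes, and in 2 of the 17 windows, against 0.466%. One window of each of the 4 genes is shown to let these runs be seen in place, with the matching bases in capitals. The Dnaja1 window lies at chr4:40722218-40722467 on the plus strand, and its pair starts 124 bases before the annotated start. The Dnaja4 window lies at chr9:54699309-54699558 on the plus strand, with pairs that start 90 and 52 bases before the annotated start. The Dnajb4 window lies at chr3:152193846-152194095 on the minus strand, with a pair that starts 14 bases before the annotated start. The Dnajb6 window lies at chr5:29735648-29735897 on the plus strand, with the 3-unit run 46 to 34 bases before the annotated start.
Dnaja1: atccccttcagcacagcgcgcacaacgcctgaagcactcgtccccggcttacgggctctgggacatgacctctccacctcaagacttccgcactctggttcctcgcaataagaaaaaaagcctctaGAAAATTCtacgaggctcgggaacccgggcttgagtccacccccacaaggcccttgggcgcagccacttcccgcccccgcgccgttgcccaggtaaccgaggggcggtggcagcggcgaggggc
Dnaja4: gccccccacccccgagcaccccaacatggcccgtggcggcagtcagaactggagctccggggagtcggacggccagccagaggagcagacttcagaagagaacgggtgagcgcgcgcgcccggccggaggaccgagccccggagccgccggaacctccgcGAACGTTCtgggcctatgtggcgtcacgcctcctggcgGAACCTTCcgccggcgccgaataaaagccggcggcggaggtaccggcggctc
Dnajb4: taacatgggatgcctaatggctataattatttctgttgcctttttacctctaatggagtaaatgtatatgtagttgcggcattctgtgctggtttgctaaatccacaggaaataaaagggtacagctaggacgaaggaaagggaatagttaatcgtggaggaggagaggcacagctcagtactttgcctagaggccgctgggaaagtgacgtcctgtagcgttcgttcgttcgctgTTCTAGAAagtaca
Dnajb6: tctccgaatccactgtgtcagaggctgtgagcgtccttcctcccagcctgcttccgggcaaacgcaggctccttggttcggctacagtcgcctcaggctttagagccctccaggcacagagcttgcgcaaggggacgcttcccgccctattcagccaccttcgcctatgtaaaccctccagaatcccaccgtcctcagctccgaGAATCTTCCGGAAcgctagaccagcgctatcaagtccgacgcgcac
A second Dnajb6 window overlaps the first and holds the same run. The searched windows of Dnaja2, Dnajb1, Dnajb2 and Dnajb5 hold none of these letter strings. A match is a run of letters and was not tested for binding.

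Values are log2 levels per probe set as deposited, so a difference of 1 is a 2-fold difference, and differences are given with their standard error (SE). Calls are adjusted p-values under 0.05 from limma, fitted to all 45037 probe sets. Probe sets of 1 gene share their target and are not replicates of each other, and no level is set against that of another probe set. The labels do not say whether the 3 arrays of a group are separate cultures, so the p-values cover only the spread among these arrays, which may be technical, and the number of arrays limits the precision. The highest value of 27 probe sets for bacterial RNA, 5.14, served as the upper bound of background range. In these bulk samples, fewer cells of a type and less RNA per cell cannot be told apart.

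Heat shock raised Dnaja1, Dnaja4, Dnajb1 and Dnajb4 in both lines, each on its probe set with the highest mean. In Q111 cells 13 of the 23 probe sets rose and 4 fell, while 19.8% of all probe sets rose and 22.3% fell. In Q7 cells 14 rose and 2 fell, while 10.0% of all probe sets rose and 14.1% fell. One scaling, chosen after seeing the data, centred arrays on the median of genes. It added 0.73 to every change in Q111 cells and 0.35 in Q7 cells, and 18 then rose and 2 fell in Q111 cells. The shares of all probe sets or genes called under this scaling are not given, here or below. Its counts can therefore not be read as a result about the members or the listed genes. The 18 include 1457233_at of Dnaja2 and 1439524_at of Dnajb4, which were in background range on all Q111 arrays. Planned centring moved the changes less. Centring on the median of probe sets added -0.05 in Q111 and 0.03 in Q7 cells, and centring on ribosomal protein genes -0.11 and -0.04. In the reported fit the median change of the 23 probe sets was 0.81 in Q111 and 0.87 in Q7 cells. That of all probe sets was 0.05 in Q111 and 0.02 in Q7 cells. The heated and unheated arrays did not overlap for 19 of the 23 probe sets in Q111 cells (51.3% of all probe sets) and for 21 in Q7 cells (43.2%). Counted by 1 probe set per gene, the one with the highest mean, Dnaja1, Dnaja4, Dnajb1, Dnajb4 and Dnajb6 rose and Dnajb5 fell in Q111 cells, where 18.5% of all genes rose and 27.2% fell. By the same count Dnaja1, Dnaja4, Dnajb1, Dnajb2 and Dnajb4 rose in Q7 cells, where 11.2% of all genes rose, and limma called none lower, against 16.8% of all genes and 1 of the 8 at an unadjusted p under 0.05.

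**Figure D1:**
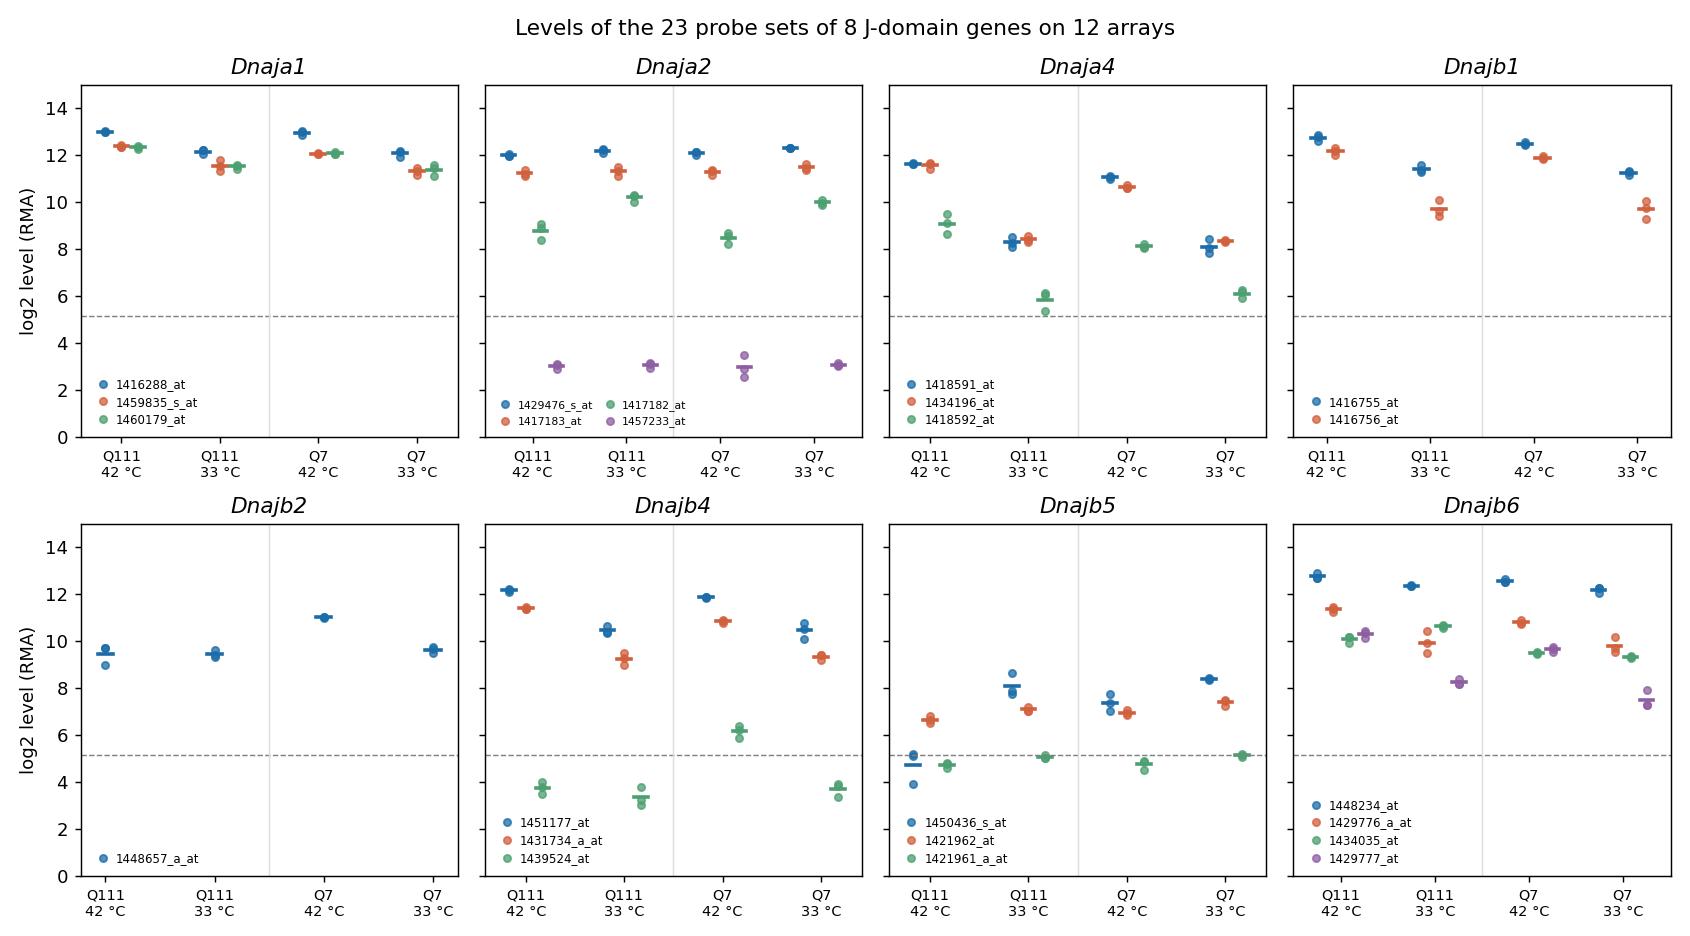
Log2 level of each of the 23 probe sets (colours) on each array (points, 3 per group; bars, group means), by gene and group. The dashed line is the upper bound of background range, 5.14. All heated arrays lie above the unheated arrays of the same line for every probe set of Dnaja1, Dnaja4 and Dnajb1, and the Dnajb5 probe set 1450436_s_at is low in heated Q111 cells.

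The arrays carry a measure of RNA quality whose mean was higher with heat in both lines. Only in Q7 cells did it separate every heated from every unheated array. The 3' minus 5' signal of actin, which grows where RNA is degraded or copied incompletely, was 1.25 ± 0.23 in heated and 0.72 ± 0.36 in unheated Q111 cells, and 1.48 ± 0.12 in heated and 0.54 ± 0.16 in unheated Q7 cells (SD, n = 3 each). With it as a covariate, a fit chosen after seeing the data, 7 of the 14 member probe sets that rose in Q7 cells were still called: all 3 of Dnaja4, 1416756_at of Dnajb1, 1431734_a_at and 1439524_at of Dnajb4, and 1429777_at of Dnajb6. The other 7 no longer passed, among them all 3 of Dnaja1 and the single probe set of Dnajb2, and no fall in Q7 cells was called. The SE grew in that fit, and several changes without a call kept their size: Dnajb2 changed by 1.41 (SE 0.41), 1451177_at of Dnajb4 by 1.51 (SE 0.37), 1416288_at of Dnaja1 by 0.85 (SE 0.27) and 1417182_at of Dnaja2 by -1.58 (SE 0.41). The change of 1459835_s_at of Dnaja1 was smaller, at 0.34 (SE 0.27). In Q111 cells 11 of the 13 rises and 2 of the 4 falls were still called with the covariate.

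Hspa1a, the heat-inducible Hsp70, rose with heat by 6.48 (SE 0.22) in Q111 cells and by 5.48 (SE 0.22) in Q7 cells, which checks the heat shock labels. Huntingtin RNA was read from 1425969_a_at, the Htt probe set with the highest mean of 4, which does not show the length of the repeat. The other Htt probe sets are not reported here. Probe set 1425969_a_at ranged over 6.60 to 6.82 in heated and 7.37 to 7.85 in unheated Q111 cells. In Q7 cells it ranged over 7.59 to 8.05 on heated and 8.75 to 8.93 on unheated arrays. Of 8 measured markers of striatal projection neurons, 4 were above background range on all arrays of heated and 2 of unheated Q111 cells, against 3 of heated and 4 of unheated Q7 cells, and Drd2 was above it on no array. Their summed level was 8.51 to 8.99 in heated and 7.85 to 8.09 in unheated Q111 cells, and 8.32 to 8.68 in heated and 8.74 to 8.89 in unheated Q7 cells. Of 6 markers of neural progenitors 3 were above it in each Q111 group and all 6 in each Q7 group, with Sox2 and Fabp7 in background range in Q111 cells. The summed progenitor level was 13.4 to 13.6 in heated and 13.8 to 13.9 in unheated Q111 cells, and 13.9 to 14.0 in heated and 14.1 in unheated Q7 cells. Of 6 fibroblast markers 5 were above background range in every group, with a summed level of 13.5 to 13.9 in heated and 14.6 to 14.7 in unheated Q111 cells, and of 13.3 to 13.4 in heated and 13.9 to 14.0 in unheated Q7 cells. No endothelial marker and at most 1 microglial marker was above it on all arrays of a group. The part of these cell type differences in the results below was not tested.

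Dnaja4, a class A member of the cytosol that is heat-inducible, rose most among the 8 genes, each read by its probe set with the highest mean. Probe set 1418591_at was at 11.67, 11.65 and 11.62 on the heated Q111 arrays, against 8.08, 8.54 and 8.28 on the unheated ones. In Q7 cells it was at 11.10, 11.10 and 11.00 on the heated arrays, against 8.42, 7.82 and 8.04 on the unheated ones. Heated arrays thus stood clear of unheated ones in both lines, and the heated Q111 arrays stood above the heated Q7 arrays, while the unheated arrays of the lines overlapped. The rise was 3.34 in Q111 cells, or 10.2-fold, and 2.97 in Q7 cells, or 7.83-fold (SE 0.17 each; limma, adjusted p = 1.294e-06 in Q111 and 3.688e-06 in Q7 cells). It ranked 169th of 45037 probe sets from the largest rise downward in Q111 cells and 112th in Q7 cells. The other Dnaja4 probe sets gave rises of 3.14 (SE 0.13) in Q111 and 2.29 (SE 0.13) in Q7 cells for 1434196_at, and of 3.24 (SE 0.25) in Q111 and 2.01 (SE 0.25) in Q7 cells for 1418592_at. In Q7 cells 1439524_at of Dnajb4 (a fitted 2.45), 1416756_at of Dnajb1 (2.21) and 1429777_at of Dnajb6 (2.18) rose more than 1418592_at.

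The remaining class A genes showed smaller rises or none. Dnaja1 encodes a farnesylated, broadly expressed partner of the constitutive Hsp70. Its probe set 1416288_at was at 13.04, 13.01 and 12.99 on heated and 12.04, 12.22 and 12.21 on unheated Q111 arrays. In Q7 cells it was at 12.98, 13.05 and 12.86 on heated and 12.14, 12.19 and 11.93 on unheated arrays. Both lines showed the same pattern of heated arrays above unheated ones, and the lines overlapped at each temperature. Its rise was 0.85 in Q111 and 0.87 in Q7 cells (SE 0.13 each; limma, adjusted p = 0.0004827 in Q111 and 0.0006411 in Q7 cells). The other 2 Dnaja1 probe sets rose by 0.81 each in Q111 cells and by 0.75 and 0.69 in Q7 cells.

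Dnaja2, a further class A gene, gave no called rise on any of its 4 probe sets. With arrays centred on the median of genes 3 of them were called higher in Q111 cells, by 0.53, 0.64 and 0.67 (limma, adjusted p = 0.0152, 0.01599 and 0.006147). In the reported fit their changes there were -0.20, -0.08 and -0.05, before the 0.73 that this scaling added to every change. The 0.67 was that of 1457233_at, in background range on every array. Its probe set with the highest level, 1429476_s_at, changed by -0.20 in Q111 and by -0.21 in Q7 cells (SE 0.12 each; limma, adjusted p = 0.1886 in Q111 and 0.2258 in Q7 cells). Probe set 1417182_at was at 8.90, 9.06 and 8.38 on heated and 10.02, 10.32 and 10.29 on unheated Q111 arrays, and at 8.69, 8.24 and 8.56 on heated and 10.12, 9.90 and 9.97 on unheated Q7 arrays. Of the Dnaja2 probe sets only this one was called, and it fell by 1.42 in Q111 cells and fell by 1.50 in Q7 cells (SE 0.19 each; limma, adjusted p = 0.0002789 in Q111 and 0.0003073 in Q7 cells). The probe sets of Dnaja2 therefore disagree, since 1417183_at, at 11.12 to 11.63 on the 12 arrays, overlapped between heated and unheated arrays in both lines, and 1457233_at stayed in background range.

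Among the class B genes, Dnajb1 and its close relative Dnajb4 rose in both lines. Dnajb1 is the classical heat-inducible Hsp40 and works with Hsp70 in refolding and disaggregation. Its probe set 1416755_at was at 12.76, 12.60 and 12.86 on heated and 11.28, 11.58 and 11.37 on unheated Q111 arrays. In Q7 cells it was at 12.49, 12.56 and 12.44 on heated and 11.32, 11.28 and 11.17 on unheated arrays. Every heated array was higher than every unheated one, by a change of 1.33 in Q111 and 1.24 in Q7 cells (SE 0.13 each; limma, adjusted p = 4.484e-05 in Q111 and 9.541e-05 in Q7 cells). The other Dnajb1 probe set, 1416756_at, rose by 2.45 in Q111 and by 2.21 in Q7 cells (SE 0.22 each).

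Dnajb4 was measured by 3 probe sets, of which 2 gave the same picture. Probe set 1451177_at was at 12.16, 12.11 and 12.23 on heated and 10.64, 10.33 and 10.40 on unheated Q111 arrays, and at 11.86, 11.89 and 11.84 on heated and 10.78, 10.52 and 10.07 on unheated Q7 arrays. The change was 1.71 in Q111 and 1.41 in Q7 cells (SE 0.18 each; limma, adjusted p = 5.558e-05 in Q111 and 0.0002549 in Q7 cells). Probe set 1431734_a_at rose by 2.15 in Q111 and by 1.50 in Q7 cells (SE 0.15 each). The third, 1439524_at, was dim and behaved differently between the lines: it was at 3.98, 3.49 and 3.78 on heated and 3.79, 3.21 and 3.01 on unheated Q111 arrays, all in background range. On the Q7 arrays it was at 6.21, 5.85 and 6.40 after heat and at 3.92, 3.82 and 3.38 without it. Only the heated Q7 arrays were above background range, so its rise in Q7 cells is at least 2.01-fold (limma, adjusted p = 6.126e-05), the mean of the heated arrays being set against the background bound.

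Dnajb5, another relative of Dnajb1, fell. Probe set 1450436_s_at was at 5.08, 5.20 and 3.92 on heated and 7.87, 8.63 and 7.75 on unheated Q111 arrays. In Q7 cells it was at 7.74, 7.01 and 7.36 on heated and 8.36, 8.42 and 8.38 on unheated arrays. Heated Q111 arrays were thus the lowest, with 1 of the 3 above background range, and the heated arrays lay below the unheated ones in both lines. The fitted change was -3.35 in Q111 cells, which was called, and -1.02 in Q7 cells, which narrowly was not (SE 0.34 each; limma, adjusted p = 4.966e-05 in Q111 and 0.05007 in Q7 cells). With the 2 heated Q111 arrays in background range set to the background bound the change in Q111 cells was -2.92, so its full size was not measured. Dnajb5 probe set 1421962_at changed by -0.44 in each line (SE 0.14; limma, adjusted p = 0.02889 in Q111 and 0.04384 in Q7 cells), a fall whose direction in Q111 cells turned to 0.29 with each array centred on the median of its genes. That call ended without 4 of the 12 arrays in Q111 cells (limma, adjusted p up to 0.09405, without Q111 heated array 1) and without 8 of them in Q7 cells (up to 0.1558, without Q7 heated array 3). The third Dnajb5 probe set, 1421961_a_at, was near the background bound everywhere, at 4.52 to 5.19, and was not called in either line.

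Dnajb2 and Dnajb6 belong to the class B members studied most for polyglutamine proteins. Dnajb2, which has ubiquitin-interacting motifs and passes clients to the proteasome, was at 9.69, 9.72 and 8.98 on heated and 9.34, 9.61 and 9.42 on unheated Q111 arrays. In Q7 cells it was at 11.03, 10.97 and 11.03 on heated and 9.50, 9.64 and 9.74 on unheated arrays. Heated Q7 arrays were the highest, and the other 3 groups overlapped with each other. The change was 0.00 in Q111 cells, with a 95% interval of -0.42 to 0.43 (limma, adjusted p = 0.9852), and 1.38, or 2.61-fold, in Q7 cells (SE 0.19 each; limma, adjusted p = 0.0004852). Centring arrays on the median of genes added 0.73 to every change in Q111 cells. Dnajb2 was then called higher there as well, by 0.73 (limma, adjusted p = 0.003195), which is the added amount itself.

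Dnajb6, whose serine-rich stretch binds polyglutamine peptides and slows their aggregation, had 4 probe sets that differed in response. Probe set 1429777_at was at 10.44, 10.34 and 10.14 on heated and 8.39, 8.19 and 8.18 on unheated Q111 arrays, and at 9.74, 9.55 and 9.67 on heated and 7.26, 7.27 and 7.90 on unheated Q7 arrays. It rose by 2.05 in Q111 and by 2.18 in Q7 cells (SE 0.18 each; limma, adjusted p = 2.589e-05 in Q111 and 2.653e-05 in Q7 cells). Probe set 1429776_a_at rose by 1.42 in Q111 and by 0.99 in Q7 cells (SE 0.24 each), and the rise in Q7 cells lost its call without Q7 unheated array 2 (limma, adjusted p = 0.05128). These 2 probe sets moved well beyond their spread. The change of 1448234_at, the probe set of Dnajb6 with the highest level, was 0.40 in Q111 and 0.36 in Q7 cells (SE 0.12 each; limma, adjusted p = 0.02356 in Q111 and 0.05394 in Q7 cells). Its call in Q111 cells ended without heated array 3 (limma, adjusted p = 0.06586), unheated array 2 or unheated array 3.
The fourth Dnajb6 probe set moved the other way in Q111 cells. Probe set 1434035_at was at 10.16, 10.15 and 9.90 on heated and 10.56, 10.64 and 10.68 on unheated Q111 arrays, and at 9.54, 9.46 and 9.47 on heated and 9.28, 9.35 and 9.32 on unheated Q7 arrays. It fell by 0.56 in Q111 cells, which turned to 0.17 with arrays centred on the median of genes, and changed by 0.17 in Q7 cells (SE 0.12 each; limma, adjusted p = 0.004654 in Q111 and 0.3541 in Q7 cells). Which transcripts the 4 probe sets read was not analysed here.

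**Figure D2:**
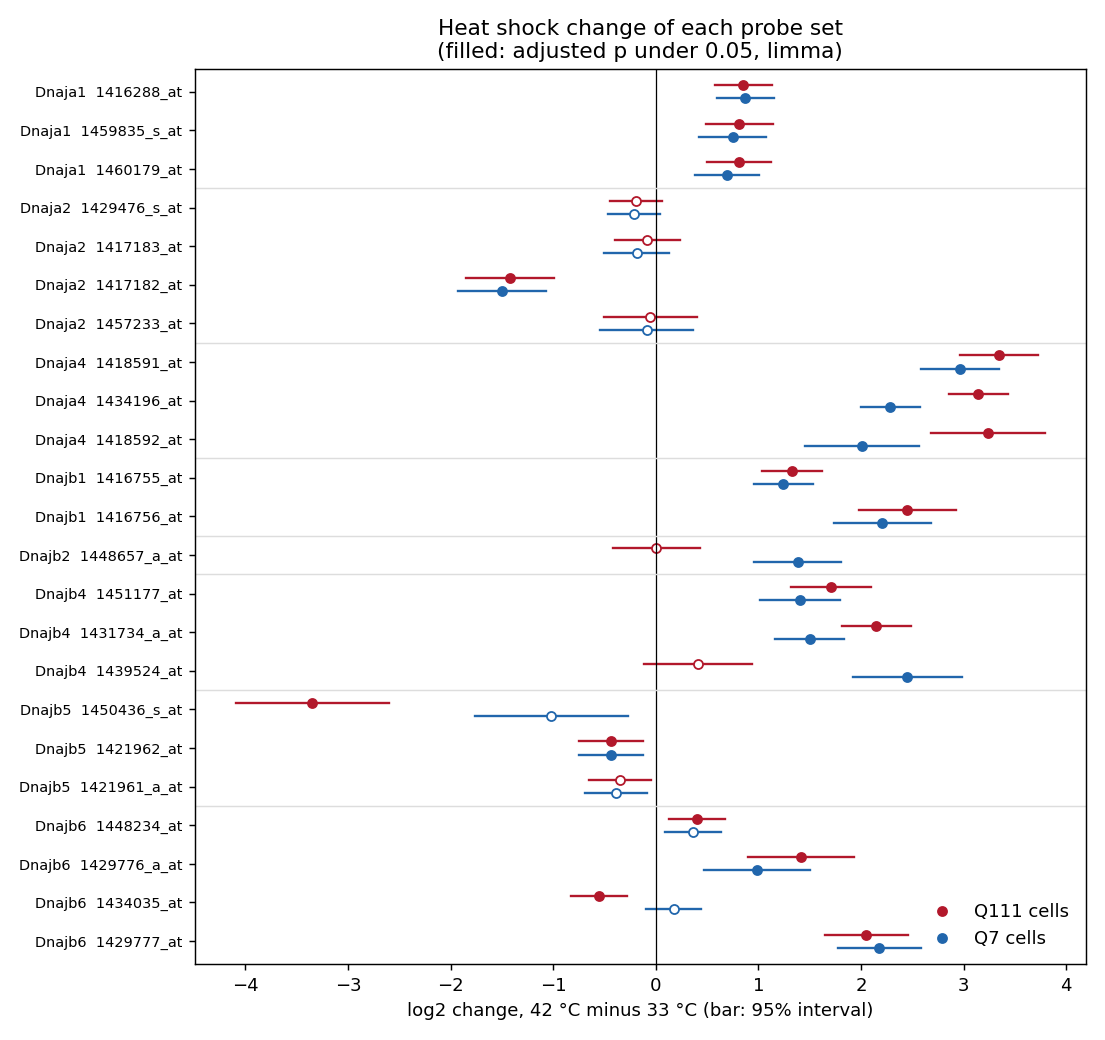
Log2 change with heat shock (42 °C minus 33 °C) of each of the 23 probe sets in Q111 cells (red) and Q7 cells (blue), with 95% intervals; filled points passed an adjusted p of 0.05 in limma. The Dnaja4 probe sets lie between 3.14 and 3.34 in Q111 cells and between 2.01 and 2.97 in Q7 cells, and Dnajb2 lies at 0.00 in Q111 and at 1.38 in Q7 cells.

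Same-numbered Q111 arrays met the rule for pairing used here, though the labels do not state a pairing. With the number as a block, on the Q111 arrays alone, the falls called were 2 of 23, those of 1417182_at of Dnaja2 and 1450436_s_at of Dnajb5. The falls of 1421962_at of Dnajb5 (limma, adjusted p = 0.159) and 1434035_at of Dnajb6 (0.08664) and the rise of 1448234_at of Dnajb6 (0.1786) were not called in that fit.

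The heat shock changes themselves differed between the lines for 4 probe sets of 4 genes. Relative to Q7 cells the change in Q111 cells was larger for 1 of the 23 probe sets, against 0.611% of all probe sets. It was smaller or more negative for 3, against 2.07%. With arrays centred on the median of genes these counts were 2 and 2, with the share of all probe sets not given. The larger one was 1434196_at of Dnaja4, at 11.62, 11.67 and 11.42 on heated and 8.30, 8.40 and 8.58 on unheated Q111 arrays, against 10.73, 10.59 and 10.59 on heated and 8.35, 8.30 and 8.41 on unheated Q7 arrays. The heated arrays of the lines did not overlap, and the unheated ones did. The difference of the changes was 0.86 (SE 0.19; limma, adjusted p = 0.03867). For the other Dnaja4 probe sets it was 1.23 (SE 0.36; limma, adjusted p = 0.1011) and 0.37 (SE 0.24; limma, adjusted p = 0.4756), in the same direction.

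The 3 negative differences of changes were those of Dnajb2, Dnajb4 and Dnajb5. For Dnajb2 it was -1.38 (SE 0.27; limma, adjusted p = 0.02869), a call that ended with arrays centred on the median of genes (limma, adjusted p = 0.05246). For 1439524_at of Dnajb4 it was -2.04 (SE 0.34; limma, adjusted p = 0.01471), with both Q111 groups in background range. Its 2 brighter sister probe sets differed in the opposite direction, by 0.30 (SE 0.25) and 0.65 (SE 0.22), without passing the test. For 1450436_s_at of Dnajb5 it was -2.33 (SE 0.48; limma, adjusted p = 0.03212), or -1.90 with values in background range set to the bound, while 1421962_at of the same gene differed by 0.00 (SE 0.20), with a 95% interval of -0.44 to 0.44. These calls were close to the threshold: leaving out single arrays ended that of 1434196_at of Dnaja4 for all arrays but Q111 heated array 3, with an adjusted p of up to 0.119 without Q7 heated array 3. The calls of Dnajb2 and of 1450436_s_at of Dnajb5 ended without any unheated array and without Q7 heated array 1 or 3 (adjusted p up to 0.09007 for Dnajb2 and 0.09349 for 1450436_s_at of Dnajb5, both without Q7 heated array 3). That of 1439524_at of Dnajb4 ended without Q7 heated array 3 (adjusted p = 0.05328), and it alone of the 4 was still called with the actin signal as a covariate. The other 3 differences kept their size in that fit, at 0.82 (SE 0.22) for 1434196_at of Dnaja4, -1.39 (SE 0.33) for Dnajb2 and -2.20 (SE 0.57) for 1450436_s_at of Dnajb5.
For Dnajb1 and Dnaja1, which rose in both lines, the intervals of the difference were wide. It was 0.08 for 1416755_at of Dnajb1, with a 95% interval of -0.33 to 0.50, and -0.02 for 1416288_at of Dnaja1, with an interval of -0.42 to 0.38. Neither passed the test, which does not show that the lines responded alike.

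At 33 °C the lines differed for Dnajb6. In unheated Q111 cells 2 of the 23 probe sets were higher, against 3.16% of all probe sets, and limma called none lower, against 3.62%, also at an unadjusted p under 0.05. Both were Dnajb6: 1434035_at was higher by 1.31, or 2.48-fold (SE 0.12; limma, adjusted p = 4.582e-05), and 1429777_at by 0.78 (SE 0.18; limma, adjusted p = 0.02509). On both, every unheated Q111 array lay above every unheated Q7 array. The call of 1429777_at ended without any 1 of the Q111 unheated arrays or without Q7 unheated array 1 or 2 (adjusted p up to 0.1172, without Q7 unheated array 2). The other Dnajb6 probe sets differed by 0.17 (SE 0.12) for 1448234_at and 0.13 (SE 0.24) for 1429776_a_at and were not called. The unheated arrays of the lines did not overlap for 5 of the 23 probe sets, against 22.4% of all probe sets.

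After heat shock more of the probe sets were called different between the lines. In heated Q111 cells 6 of the 23 probe sets were higher, against 4.73% of all probe sets, and 3 were lower, against 10.7%. With arrays centred on the median of genes 13 were higher and 3 lower, with the share of all probe sets not given. All 3 Dnaja4 probe sets were higher, by 0.58 (SE 0.17; limma, adjusted p = 0.04403) for 1418591_at, by 0.93 (SE 0.13; limma, adjusted p = 0.0008648) for 1434196_at and by 0.97 (SE 0.25; limma, adjusted p = 0.0246) for 1418592_at. The call of 1418591_at ended without any 1 of the heated arrays, Q111 unheated array 3 or Q7 unheated array 3 (adjusted p up to 0.1443, without Q7 heated array 3), that of 1418592_at without Q111 heated array 1 or 2 or Q7 heated array 1 or 3 (up to 0.08895), and that of 1434196_at held. The order of the Dnaja4 levels was thus heated Q111 cells, heated Q7 cells and then the unheated cells of both lines, which did not differ beyond their spread. Dnajb4 was higher on 1431734_a_at by 0.55 (SE 0.15; limma, adjusted p = 0.03325), a call that ended without any 1 of the heated arrays. Dnajb6 was higher on 1434035_at by 0.58 (SE 0.12; limma, adjusted p = 0.008754) and on 1429777_at by 0.65 (SE 0.18; limma, adjusted p = 0.03441), and the call of 1429777_at ended without several single arrays (up to 0.09905, without Q7 heated array 3). With the actin signal as a covariate 3 of the 6 were still called, 1418591_at and 1434196_at of Dnaja4 and 1434035_at of Dnajb6.
The 3 lower probe sets in heated Q111 cells belong to the genes with the negative differences of changes. Dnajb2 was lower by -1.55 (SE 0.19; limma, adjusted p = 0.0003806), and the heated Q111 arrays, at up to 9.72, lay below the heated Q7 arrays, at 10.97 or more. Dnajb5 was lower on 1450436_s_at by a fitted -2.63 (SE 0.34; limma, adjusted p = 0.0004794), or -2.21 with the 2 heated Q111 arrays in background range set to the bound. Dnajb4 was lower on 1439524_at, at least 2.01-fold against the background bound (limma, adjusted p = 8.908e-05). The heated arrays of the lines did not overlap for 17 of the 23 probe sets, against 31.6% of all probe sets.

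**Figure D3:**
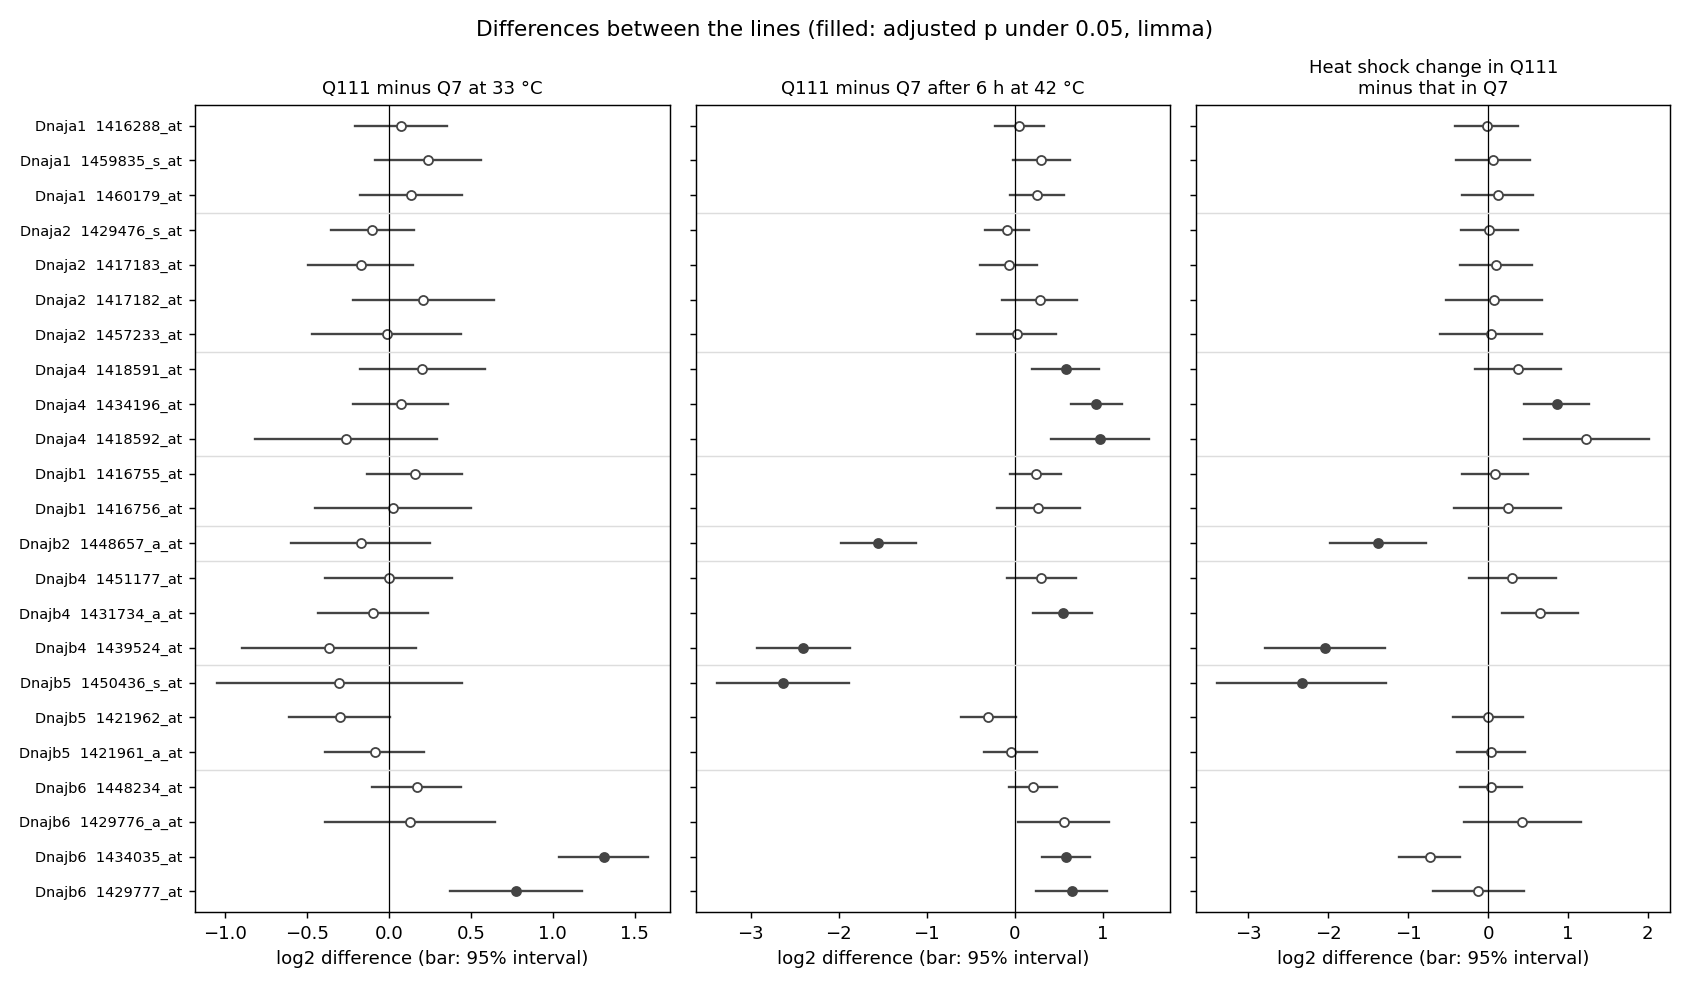
Log2 differences between the lines for each of the 23 probe sets, with 95% intervals and filled points at an adjusted p under 0.05 in limma: Q111 minus Q7 at 33 °C (left), Q111 minus Q7 after 6 h at 42 °C (middle) and the heat shock change in Q111 minus that in Q7 cells (right). Only Dnajb6 is called at 33 °C, while Dnaja4, Dnajb2, Dnajb4, Dnajb5 and Dnajb6 are called after heat shock. The horizontal scales differ between the panels.

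The genes these co-chaperones work with were read from lists chosen with earlier results of these data known, with 1 probe set per gene, again that of the highest mean. Of 19 measured Hsp70 partners (Hsp70 and Hsp110 family members, nucleotide exchange factors, other Hsp70 co-chaperones and heat shock factors), 8 rose and 2 fell in Q111 cells, where 18.5% of all genes rose and 27.2% fell, and 7 rose and 1 fell in Q7 cells, where 11.2% rose and 16.8% fell. With arrays centred on the median of genes 14 rose and 0 fell in Q111 cells, with the share of all genes not given for that scaling. Their median change was 0.34 in Q111 and 0.16 in Q7 cells, where that of all genes was -0.02 in Q111 and 0.00 in Q7 cells. Hspa1b, a near-identical copy of Hspa1a whose signal is uncertain as a separate value, rose by 1.49 in Q111 and by 1.35 in Q7 cells on this probe set and by 4.03 and 4.43 in Q111 and 3.82 and 4.07 in Q7 cells on its other ones. Hspa4l, an Hsp110 family member that exchanges nucleotide on Hsp70, rose by 1.90 in Q111 and by 2.04 in Q7 cells (SE 0.18 each), while its other probe sets ranged over 0.16 to 1.57 in Q111 and 0.42 to 2.00 in Q7 cells. Hsph1, of the same family, rose by 1.0 in Q111 and by 0.90 in Q7 cells (SE 0.14 each), and its other probe set changed by 3.48 in Q111 and by 2.89 in Q7 cells. Bag3, a co-chaperone that couples Hsp70 to autophagy, rose by 1.60 in Q111 and by 1.01 in Q7 cells (SE 0.22 each), and was higher in heated Q111 than in heated Q7 cells by 0.98 (limma, adjusted p = 0.01121). Hspa8, the constitutive Hsp70, changed by 0.16 in each line on its probe set with the highest mean (SE 0.12; limma, adjusted p = 0.3077 in Q111 and 0.3908 in Q7 cells), while its other probe sets ranged up to 3.78 in Q111 and 2.44 in Q7 cells. Hsf2, a heat shock factor, changed by 0.67 in Q111 and by 0.89 in Q7 cells and was not called (SE 0.32 each; limma, adjusted p = 0.1081 in Q111 and 0.06357 in Q7 cells), with all its unheated arrays in background range.

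The J-domain genes outside the cytosolic set gave both rises and falls. Of 9 other class A and B genes 2 rose and 3 fell in Q111 cells and 1 rose and 1 fell in Q7 cells, near the shares of all genes given above, with a median change of 0.01 in Q111 and 0.09 in Q7 cells, and 4 of the 9 were in background range in every group. With arrays centred on the median of genes 6 rose and 2 fell in Q111 cells and 3 rose and 1 fell in Q7 cells. The share of all genes is not given for that scaling. Dnajb9, a co-chaperone of the endoplasmic reticulum, rose by 1.39 in Q111 and by 1.40 in Q7 cells (SE 0.20 each). Dnajb12, of the endoplasmic reticulum membrane, fell by 1.94 in Q111 cells and fell by 1.36 in Q7 cells (SE 0.25 each). Dnajb14, its close relative, fell by 1.44 in Q111 cells (SE 0.24; limma, adjusted p = 0.0009953) and changed by -0.42 in Q7 cells (limma, adjusted p = 0.2581). Of 28 class C genes 5 rose and 10 fell in Q111 cells, against 18.5% and 27.2% of all genes. In Q7 cells 4 rose and 10 fell, against 11.2% and 16.8% of all genes. The class C medians were -0.31 in Q111 and -0.35 in Q7 cells. But with arrays centred on the median of genes 12 rose and 3 fell in Q111 cells and 7 rose and 6 fell in Q7 cells. For that scaling, again, the share of all genes is not given. Dnajc27 was at least 2.77-fold lower with heat in Q111 cells, where all heated arrays were in background range (limma, adjusted p = 5.633e-05), and fell by 1.75 in Q7 cells (SE 0.25), while its other probe set changed by -0.43 in Q111 and by -0.30 in Q7 cells. Dnajc30, a mitochondrial member, fell by 2.19 in Q111 cells and fell by 1.34 in Q7 cells (SE 0.24 each). Dnajc15, also mitochondrial, rose by 1.73 in Q111 cells (SE 0.44). In Q7 cells, where it was above background range on 1 heated and no unheated array, its fitted rise was called (limma, adjusted p = 0.005177) and was 0.47 with values in background range set to the bound. At 33 °C it was at least 27.2-fold higher in Q111 than in Q7 cells (limma, adjusted p = 3.084e-06). The difference of heat shock changes between the lines was called by limma for 0 of the 19, 0 of the 9 and 0 of the 28 genes of these lists. An unadjusted p under 0.05 was reached by 2, 2 and 7 of them. The share of all genes at that unadjusted p is not given, so these counts cannot be read as a result about the lists.

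**Figure D4:**
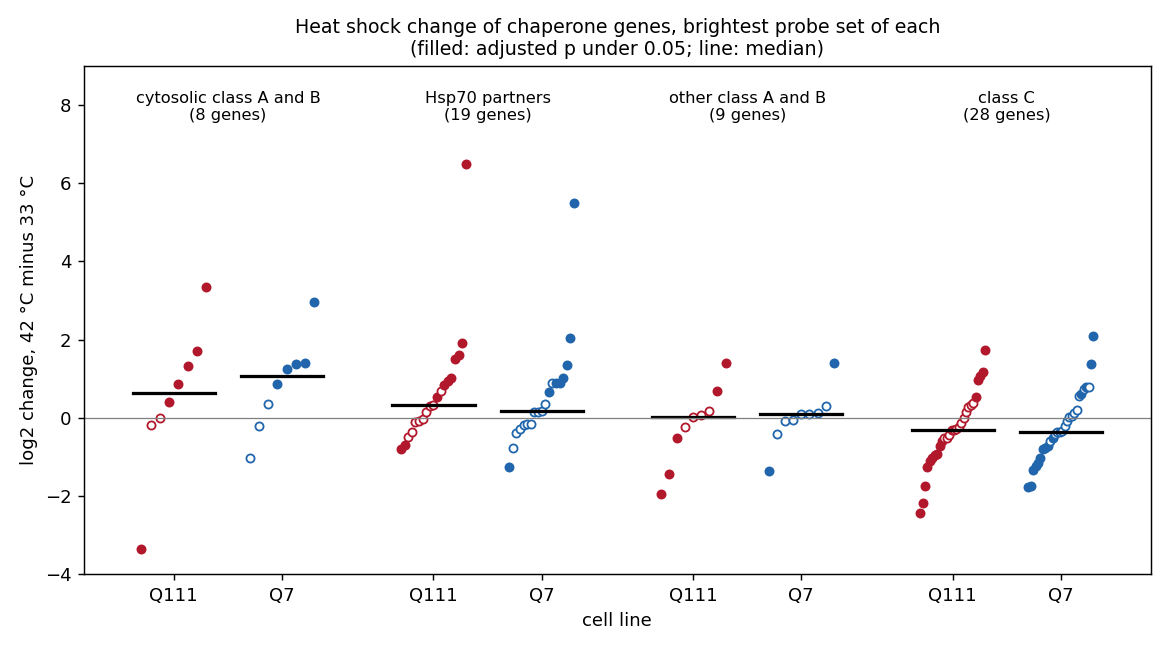
Log2 change with heat shock of each measured gene of 4 lists (1 probe set per gene), in Q111 cells (red) and Q7 cells (blue); filled points passed an adjusted p of 0.05 in limma and the bars are medians. The highest points are Hspa1a among the Hsp70 partners, at 6.48 in Q111 and 5.48 in Q7 cells, and Dnaja4 among the cytosolic genes, at 3.34 in Q111 and 2.97 in Q7 cells. The class C medians lie at -0.31 in Q111 and -0.35 in Q7 cells. With arrays centred on the median of genes 12 class C genes rose and 3 fell in Q111 cells and 7 rose and 6 fell in Q7 cells. The share of all genes is not given for that scaling.

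The nearest profiles were looked up for the 3 genes whose probe set with the highest mean was called with a change of at least 1 in both lines. Likeness was the root mean square difference of levels over the 12 arrays, each gene centred on its own mean, and it describes these arrays only. Nearest to Dnajb1 was Hspa1b, at 0.12, before Lcor and Cep76, at 0.15 each. Each gene is read here by its probe set with the highest mean alone. On their other probe sets Hspa1b rose by 4.03 and 4.43 and Dnajb1 by 2.45 in Q111 cells. In Q7 cells those rises were 3.82 and 4.07 for Hspa1b and 2.21 for Dnajb1. Nearest to Dnajb4 were Uspl1 at 0.14, Zfp367 at 0.15 and Pmaip1 at 0.16. For Dnaja4 the neighbours named were Slc7a6os at 0.29, Cd160 at 0.34 and Marveld2 at 0.35. A further 1, with a predicted or clone name, ranked before Marveld2 and was passed over. The measure is not scaled for the size of a change, and Dnaja4 changed most of the 3 genes. Among the genes themselves, Dnajb1 and Dnajb4 differed by 0.23, and Dnaja4 differed from Dnajb4 by 0.84 and from Dnajb1 by 0.95.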

How the data were processed

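Total RNA of each group was hybridised to 3 arrays. The authors deposited log2 expression values, 1 per probe set and array, computed with RMA per the submitters' processing notes. RMA subtracts background, makes array distributions alike and pools the probes of each set; its version is not given in the sources used here. Of 45101 probe sets 64 controls were left out, 34945 named 1 gene, 932 several and 9160 are unnamed here. limma 3.58.1 in R 4.3.3 fitted 4 group means to all 12 arrays and tested 5 two-sided contrasts with Benjamini-Hochberg adjustment over 45037 probe sets; the script was tested on simulated data. The members and gene lists were chosen with earlier results of these data known. Named genes were all member probe sets, up to 3 called genes per list with the largest mean heat shock change, and genes fixed by name (1 is not analysed here). The 3 nearest profiles were also named, with predicted genes and clone names passed over. Marker lists covered 8 cell types.

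Replicates carry numbers in the labels. Deviations from group means correlated between same-numbered heated and unheated Q111 arrays (r = 0.12, 0.26 and 0.30) and between unheated arrays of the lines (0.57, 0.42 and 0.62), which met the rule for pairing; other groups did not. Heated Q111 array 1, however, correlated more with unheated Q111 array 2 (r = 0.20) than with its same-numbered array (0.12). Replicates were not duplicates. Alternatives covered scaling, probe set summary, variance models, array weights, filters, blocks and left-out arrays. Promoters are RefSeq's, and the 50 bases after each start were left out.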

Additional observations from a re-analysis of the deposited data

Results flagged for a closer look

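The heat shock change differed between Q111 and Q7 cells for 4 probe sets, by limma's test of the difference itself. It was larger in Q111 cells by 0.86 for 1434196_at of Dnaja4. The difference was -1.38 for 1448657_a_at of Dnajb2, -2.04 for 1439524_at of Dnajb4 and -2.33 for 1450436_s_at of Dnajb5. For 1439524_at of Dnajb4 both Q111 groups lay in background range, and for 1450436_s_at of Dnajb5 2 of the 3 heated Q111 arrays did, so that its difference was -1.90 with those values set to the background bound. The cause of these differences was not tested.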

How the results depend on the processing

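Member probe sets called in the reported fit or under an alternative kept their direction in both, with 6 exceptions. Another 106 of 2848 values, called in neither fit, also changed sign, all from reported values of at most 0.34 in size. Among them 1421961_a_at of Dnajb5 was at 0.38 in Q111 cells with arrays centred on the median of genes. Centring arrays on the median of genes, an alternative chosen after seeing the data, added 0.73 to every heat shock change in Q111 cells and 0.35 in Q7 cells. The planned centring on the median of probe sets added -0.05 in Q111 and 0.03 in Q7 cells, and that on ribosomal protein genes -0.11 and -0.04. In Q111 cells centring on the median of genes turned 1429476_s_at (0.53), 1417183_at (0.64) and 1457233_at (0.67) of Dnaja2, 1421962_at of Dnajb5 (0.29) and 1434035_at of Dnajb6 (0.17). Of these, 1457233_at was in background range on every array. The mean of the probe sets of a gene turned Dnajb4 between the heated lines (-0.52, against 0.31 for 1451177_at). The cause of the other changes in counts was not tested. Probe set counts have no value under the alternatives with 1 value per gene. The shares of all probe sets or genes called under the alternatives are not given.

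For heat shock in Q111 cells, against 13 probe sets higher and 4 lower and 5 genes higher and 1 lower, 2 probe sets were lower with the actin covariate, with arrays centred on the median of genes and with the replicate block on Q111 arrays alone, and 2 genes were lower with the mean of probe sets and with a variance trend, whether or not the fit was robust. Leaving out 1 array gave 12 to 13 probe sets higher, 3 to 4 lower, 4 to 5 genes higher and 1 lower. For heat shock in Q7 cells, against 14 and 2 probe sets higher and lower and 5 and 0 genes, the actin covariate gave 7 and 0 probe sets and 1 gene higher. There 1 probe set was lower with arrays centred on the median of probe sets or of genes, further quantile normalization, robust fitting with a trend, and an adjusted p under 0.01, and 6 with array weights. Genes lower were 1 with 1 probe set per gene, a variance trend, only the groups compared, brighter probe sets alone and the replicate block, and 2 with the mean of probe sets and with array weights. Leaving out 1 array gave 13 to 15 and 1 to 3 probe sets and 5 to 6 and 0 to 1 genes.

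The difference of heat shock changes, against 1 probe set higher and 3 lower and 0 and 2 genes, gave 0 probe sets higher with arrays centred on the median of probe sets or on ribosomal protein genes, an adjusted p under 0.01, the replicate block and the actin covariate, 2 with further quantile normalization and with arrays centred on the median of genes, and 3 with array weights. Lower were 0 probe sets and 0 genes at an adjusted p under 0.01, 1 and 0 with the actin covariate, and 1 gene with arrays centred on the median of genes; the mean of probe sets gave 1 gene higher and 1 lower. Leaving out 1 array gave 0 to 2 probe sets higher, 0 to 3 lower (0 without Q7 heated array 3), 0 genes higher and 0 to 2 lower. Over all alternatives the adjusted p was 0.0007537 to 0.0904 for Dnajb2, 0.0007284 to 0.05328 for 1439524_at of Dnajb4, 0.001183 to 0.1152 for 1450436_s_at of Dnajb5 and 0.001685 to 0.1242 for 1434196_at of Dnaja4.

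For the lines at 33 °C, against 2 probe sets and 0 genes higher, 1 probe set was higher with only the groups compared and at an adjusted p under 0.01, and 1 gene with the mean of probe sets; leaving out 1 array gave 1 to 2 probe sets and 0 genes. After heat shock, against 6 and 3 probe sets and 1 and 2 genes, 3 probe sets were higher with arrays centred on the median of probe sets, only the groups compared and the actin covariate, 2 at an adjusted p under 0.01, and 13 with array weights, where 5 were lower, and with arrays centred on the median of genes. Genes higher were 0 with arrays centred on probe sets or ribosomal protein genes, further quantile normalization, an adjusted p under 0.01 and the replicate block, 2 with the mean of probe sets and 4 with array weights and with arrays centred on the median of genes. Leaving out 1 array gave 2 to 6 and 3 probe sets and 0 to 1 and 2 genes.

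Among Hsp70 partners in Q111 cells, against 8 higher and 2 lower, centring on the median of genes gave 14 and 0, and 1 was lower with the mean of probe sets, further quantile normalization, an adjusted p under 0.01 and the actin covariate; in Q7 cells, against 7 and 1, the actin covariate gave 2 and 0, and 0 were lower with the mean of probe sets, 2 with only the groups compared and brighter probe sets alone, and 3 with array weights. Leaving out 1 array gave 8 to 9 and 2 to 3 in Q111 cells, and 6 to 8 and 1 to 2 in Q7 cells. Of the other class A and B genes in Q111 cells, against 2 higher, 1 was higher with further quantile normalization, brighter probe sets alone and the actin covariate, and 6 with centring on genes; in Q7 cells, against 1 and 1, the actin covariate gave 0 and 0, array weights 2 higher and centring on genes 3. No left-out array moved these counts (2 and 3 in Q111 cells, 1 and 1 in Q7 cells). Class C genes in Q111 cells, against 5 and 10, were 12 and 3 with centring on genes, with 3 higher at an adjusted p under 0.01 and 1 with the actin covariate; in Q7 cells, against 4 and 10, they were 7 and 6 with centring on genes, 1 and 0 with the actin covariate, and 2 higher at an adjusted p under 0.01. Leaving out 1 array gave 3 to 6 and 9 to 12 in Q111 cells and 2 to 6 and 8 to 10 in Q7 cells.

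With the replicate block over all arrays the calls of 1421962_at of Dnajb5 in heated Q7 cells (adjusted p = 0.06233), the difference of 1434196_at of Dnaja4 (0.06415), and 1418591_at of Dnaja4 (0.06743) and 1429777_at of Dnajb6 (0.05031) between the heated lines ended, and 1450436_s_at of Dnajb5 was called lower with heat in Q7 cells (0.04529). It changed no other call of a member probe set, and the calls at 33 °C held with it, also on the unheated arrays alone. Array weights did not fully converge. Signal over background limits 1439524_at of Dnajb4, 1457233_at of Dnaja2, and 1421961_a_at and 1450436_s_at of Dnajb5.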

Other observations

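Among the marker lists, those of other glial cells also differed between groups. Of 4 measured oligodendrocyte markers Mbp, Mog and Olig2 were above background range on no array, and the summed level of the list was 8.01 to 8.20 in heated and 10.6 to 10.8 in unheated Q111 cells, and 6.35 to 6.59 in heated and 7.52 to 9.16 in unheated Q7 cells. The 5 astrocyte markers summed to 8.66 to 9.54 in heated and 9.41 to 11.0 in unheated Q111 cells, and to 7.40 to 8.09 in heated and 8.28 to 8.43 in unheated Q7 cells, with Gfap above background range on no array. The 7 neuronal markers summed to 9.04 to 9.70 in heated and 9.39 to 9.86 in unheated Q111 cells, and to 11.3 to 11.6 in heated and 11.6 to 11.9 in unheated Q7 cells. Microglial markers summed to 6.37 to 7.25 and endothelial markers to 5.96 to 6.73 over all groups.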
